A study of Homo sapiens with 6 samples.

Results

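Metallothioneins, with the transcription factor MTF1, were described in HK-2 cells given GDF5 and in control HK-2 cells. Of 9 genes chosen by symbol (MT1A, MT1E, MT1F, MT1G, MT1H, MT1M, MT1X, MT2A and MTF1), 8 were among the 34157 genes of the table and all 8 passed the level filter that left 12476 genes for testing. MT1H had no row there and is not analysed here. HK-2 is an established human line of immortalised kidney proximal tubule cells. The GDF5 group was 3 libraries of HK-2 cells treated with 100 ng/ml GDF5, a ligand of the bone morphogenetic protein family, for 48 hours, and the control group was 3 libraries of wild-type HK-2 cells with no treatment named. The labels do not say whether replicate libraries are separate cultures, and the p-values therefore cover only library-to-library spread, which may be technical. All libraries come from 1 cell line.

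Metallothioneins are small cytosolic proteins whose many cysteines bind zinc and copper and, on exposure, cadmium. MTF1 senses free zinc and switches on metallothionein genes through metal response elements, short promoter motifs, and it also acts on the zinc exporter gene SLC30A1. In kidney, proximal tubule cells are known for storing cadmium bound to metallothionein, and the genes also respond to glucocorticoids and to oxidative stress.

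The libraries held 43883788 to 56038467 reads assigned to genes, as recovered from the deposited values. Within the GDF5 group replicate 1 was the least alike, since the chi-square per gene was 4.15 and 4.71 in its pairs with replicates 2 and 3 and 1.56 between replicates 2 and 3. Pairs of control libraries gave 2.59 to 4.07. Results that rest on GDF5 replicate 1 are given with and without it. Reads from mitochondrial genes made up 10.3% in GDF5 replicate 1, 10.3% and 10.1% in GDF5 replicates 2 and 3, and 7.92 to 8.71% in control libraries. The labelled cell type was checked against its markers. All 6 epithelial markers had a mean of at least 1 RPKM (reads per kilobase of gene length, scaled to each library's reads in genes). Their summed levels were 295 to 321 RPKM in GDF5 and 342 to 361 RPKM in control libraries. CDH1 was below 1 RPKM in every GDF5 library, at 0.807 to 0.858 RPKM, and at 1.58 to 1.65 RPKM in control libraries. Among proximal tubule markers PAX8 and GGT1 had a mean of at least 1 RPKM, while LRP2 and AQP1, defining markers of that tubule segment, were at or near 0. Leukocyte and endothelial markers summed to at most 0.461 RPKM in any library. Of 5 fibroblast markers DCN and LUM were above 1 RPKM, while COL3A1, COL1A2 and PDGFRB were at most 0.124 RPKM in any library. The list summed to 71.0 to 75.6 RPKM in GDF5 and 74.1 to 80.6 RPKM in control libraries. LUM alone was at 67.6 to 71.8 RPKM in GDF5 and 70.3 to 76.6 RPKM in control libraries. The part of these differences in the results below was not tested.

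The coding sequences of the family are short and much alike, which bears on how reads are assigned, and the pair with the most reads is shown with MT1X and a pseudogene. The sequences are from GENCODE 29 transcripts on GRCh38, and the 8 metallothionein genes lie in a cluster on chromosome 16. The MT2A gene spans 56608199 to 56609497, MT1E 56625475 to 56627112 and MT1X 56682424 to 56684196 on the forward strand of that chromosome. MT2P1, a processed pseudogene outside the cluster, spans 68376323 to 68376505 on the forward strand of chromosome 4. Capitals mark cysteine codons in MT2A, and in the others the bases that differ from MT2A at the same position.
MT2A: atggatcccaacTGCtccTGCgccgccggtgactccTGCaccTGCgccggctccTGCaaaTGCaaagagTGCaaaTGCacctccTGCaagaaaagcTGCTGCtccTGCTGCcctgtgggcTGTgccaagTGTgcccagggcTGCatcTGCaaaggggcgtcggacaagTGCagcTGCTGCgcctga
MT1E: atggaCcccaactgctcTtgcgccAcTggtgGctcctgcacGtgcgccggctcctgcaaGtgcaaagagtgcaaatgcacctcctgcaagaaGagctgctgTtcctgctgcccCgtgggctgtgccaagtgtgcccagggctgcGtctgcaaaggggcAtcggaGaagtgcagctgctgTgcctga
MT1X: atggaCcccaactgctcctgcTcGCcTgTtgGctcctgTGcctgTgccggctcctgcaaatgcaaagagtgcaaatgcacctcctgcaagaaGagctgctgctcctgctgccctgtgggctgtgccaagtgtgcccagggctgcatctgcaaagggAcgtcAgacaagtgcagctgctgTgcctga
MT2P1: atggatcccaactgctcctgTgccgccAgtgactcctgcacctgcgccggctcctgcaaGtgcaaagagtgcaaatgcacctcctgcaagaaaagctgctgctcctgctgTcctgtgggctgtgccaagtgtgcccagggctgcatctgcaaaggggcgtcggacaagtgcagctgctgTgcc

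In each of the 8 metallothionein genes, MT1H included, 20 of 61 codons before the stop encode cysteine, which is 32.8%. Identity between pairs of these coding sequences, each of 186 bases with the stop codon, ran from 88.7% for MT1F with MT1X to 95.2% for MT1G with MT2A. MT1E and MT1X each differ from MT2A at 14 bases. MT2P1 differs from MT2A at 5 of its 183 bases. The share of 50-base windows found in the transcript of another gene was 4.9% for MT2A, 5.3% for MT1E, 3.6% for MT1F, 7.1% for MT1M, 5.8% for MT1A, 20.2% for MT1G and 45.1% for MT1X, and 15.7% for MT2P1. With 100-base windows it was 0.0% for each of these but MT1X, at 19.1%, all of it shared with AC026461.1, a transcript on the same strand that overlaps MT1X by 321 exon bases and has no row in the table. The read length is not given in the sources used here, so values of the genes with a large shared part, MT1X, MT1G and MT2P1 among those above, are uncertain.

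Promoter windows from RefSeq (GRCh38.p14, 250 bases before to 50 after the start) were found for 4 of the 9 genes, MT1H, MT1X, MT2A and MTF1. They were searched on both strands for the metal response element core, spelled TGCACNC or TGCGCNC. Those of MT2A and MT1X are shown because both genes were higher in every GDF5 library than in any control library. The MT2A window is chr16:56608334-56608633 and the MT1X window chr16:56682220-56682519, both on the forward strand. Their starts are those of RefSeq and not of the GENCODE genes above, and the MT2A window lies within the GENCODE span of MT2A. Capitals mark the cores in either orientation.
MT2A promoter: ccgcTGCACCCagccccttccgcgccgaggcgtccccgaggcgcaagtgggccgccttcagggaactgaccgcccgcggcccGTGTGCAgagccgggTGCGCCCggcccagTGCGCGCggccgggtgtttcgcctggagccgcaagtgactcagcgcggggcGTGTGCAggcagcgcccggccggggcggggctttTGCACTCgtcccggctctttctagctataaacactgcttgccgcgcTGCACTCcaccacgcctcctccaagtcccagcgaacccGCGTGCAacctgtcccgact
MT1X promoter: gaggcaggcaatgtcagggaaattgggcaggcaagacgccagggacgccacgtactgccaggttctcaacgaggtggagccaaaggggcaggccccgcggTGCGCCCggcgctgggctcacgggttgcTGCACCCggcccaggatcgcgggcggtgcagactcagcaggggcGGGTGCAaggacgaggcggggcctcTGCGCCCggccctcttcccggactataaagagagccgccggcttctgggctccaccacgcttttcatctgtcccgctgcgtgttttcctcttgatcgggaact

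The MT2A window held 8 cores, 6 spelled TGCACNC and 2 spelled TGCGCNC, the MT1X window 4 and the MT1H window 8, with no overlap between cores. The MTF1 window held 0. Over 35116 RefSeq promoters of the same length 29.6% held at least 1 core, 0.60% at least 4 and 0.02% at least 8. A match of letters is a description and not a measured site.

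MT2A and MT1E made up most of the metallothionein RNA in these cells. MT2A averaged 738 ± 199 RPKM in GDF5 and 554 ± 21.8 RPKM in control libraries, and MT1E 204 ± 22.1 RPKM in GDF5 and 179 ± 8.53 RPKM in control libraries (SD, n = 3 each). By its mean over the 6 libraries MT2A ranked 28th and MT1E 101st of all genes in RPKM. Together they made up 92.7 to 93.6% of the summed RPKM of the 7 metallothioneins in GDF5 and 90.9 to 91.4% in control libraries. MT1F followed at a mean of 34.8 RPKM over the 6 libraries, then MT1M at 21.7, MT1G at 5.77, MT1X at 5.49 and MT1A at 2.52 RPKM. MTF1 lay at 5.09 RPKM. Neighbours in that order did not overlap over the 6 libraries, except that MT1G, MT1X and MTF1 overlapped each other. MT1A rested on 32 to 68 reads per library.

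The order and the shares depend on the gene length the authors divided by. The implied length was 1727 bases for MT1X, against 450 bases in its principal GENCODE 29 transcript, and 1852 against 690 bases for MT1F. For MT1M it was 511 against 829 bases. Per principal transcript length MT1X would average 21.1 and MT1M 13.4 RPKM over the 6 libraries, the opposite order. MT2A, MT1E and MT1F would average 751, 286 and 93.5 RPKM, against 646, 192 and 34.8 RPKM with the implied lengths. A gene's own RPKM ratio between groups does not depend on its length. Its change on the log2(RPKM + 1) scale used below does, because the added 1 weighs more in a low value. For MT1X the log2 change was 0.46 with 1 added and 0.53 with 0.1 added.

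**Figure D1:**
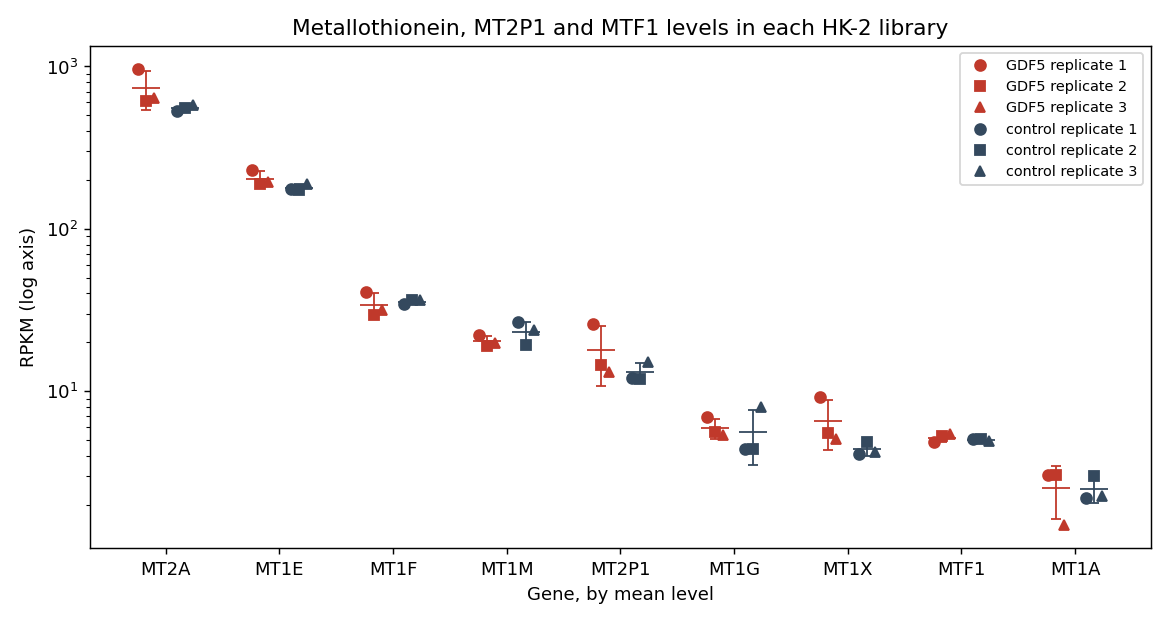
RPKM on a log axis of 7 metallothioneins, the pseudogene MT2P1 and MTF1 in each of 3 GDF5 (left of each pair) and 3 control libraries; points are libraries, horizontal bars the group mean and error bars the SD. MT2A and MT1E stand above the other members, and GDF5 replicate 1 holds the highest MT2A value, 968 RPKM.

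GDF5 and control cells were compared to ask which genes the ligand changed. With limma on log2(RPKM + 1), 0 of the 8 members were called at an adjusted p under 0.05, where 25.0% of all tested genes were called, 7.48% higher and 17.5% lower. At an unadjusted p under 0.05 there were 3 members, MT2A, MT1X and MT1E, all higher, beside 39.3% of all tested genes. With limma-voom on recovered reads and median-of-ratios scaling the same 3 were called higher and none lower, beside 29.1% of all tested genes, 15.8% higher. Without GDF5 replicate 1 limma called 1 member higher and 1 lower, beside 24.8% of all tested genes, 7.53% higher and 17.3% lower. With limma-voom and without that library 4 were called higher and 1 lower, beside 31.2%, 16.9% higher and 14.3% lower. Median-of-ratios scaling alone called 0 members, beside 23.0%, 12.2% higher and 10.8% lower. The members' median log2 change was 0.076, against -0.050 over all tested genes, and 5 of 8 were above 0, beside 4436 of all 12476. With limma-voom 6 of 8 members were above 0, beside 6289 of all 12476. The authors' deposited table gave none of the 8 an adjusted p under 0.05, where 8.73% of its genes had one. In bulk RNA fewer cells with a transcript and less transcript per cell cannot be told apart.

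MT2A, the most abundant metallothionein, was at 968, 609.6 and 637 RPKM in GDF5 replicates 1 to 3, against 534, 551 and 577 RPKM in control replicates 1 to 3. The groups did not overlap, and GDF5 replicate 1 was well above the other two. The log2 change was 0.38 (95% interval 0.0012 to 0.76, limma adjusted p = 0.126). Without GDF5 replicate 1 the change was smaller, 0.17 (0.072 to 0.27), and MT2A was called higher (limma adjusted p = 0.0284). With limma-voom it was 0.45 (0.22 to 0.68, limma-voom adjusted p = 0.00494), and 0.23 without GDF5 replicate 1 (limma-voom adjusted p = 4.45e-06). In the authors' deposited table its log2 fold change was 0.48 with an adjusted p of 0.250.

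MT1X, a widely expressed isoform, was at 9.17, 5.49 and 5.09 RPKM in GDF5 replicates 1 to 3, against 4.09, 4.89 and 4.20 RPKM in control replicates 1 to 3. These were 887, 416 and 477 reads in GDF5 and 339, 381 and 406 reads in control libraries. The groups did not overlap, and again GDF5 replicate 1 was the highest. On the log2 scale MT1X differed by 0.46 (0.024 to 0.89, limma adjusted p = 0.111), or 0.22 without GDF5 replicate 1 (limma adjusted p = 0.0718). With limma-voom MT1X was called at 0.62 (adjusted p = 0.0122) and at 0.33 without GDF5 replicate 1 (adjusted p = 0.0251), and the call ended without control replicate 1 (adjusted p = 0.0548) or control replicate 3 (0.0687).

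MT1E, the second most abundant member, was at 229, 189.7 and 193 RPKM in GDF5 replicates 1 to 3, against 176, 173 and 189 RPKM in control replicates 1 to 3. The groups did not overlap, but GDF5 replicate 2 and control replicate 3 lay side by side. Its log2 change was 0.18 (0.0047 to 0.36, limma adjusted p = 0.119), or 0.094 without GDF5 replicate 1 (limma adjusted p = 0.152). Limma-voom called it at 0.25 (adjusted p = 0.00337) and at 0.16 without GDF5 replicate 1 (adjusted p = 0.00303). In all, 3 of 8 members were non-overlapping and higher in GDF5, where 13.5% of all tested genes were, and none was non-overlapping and lower, where 30.4% were (43.9% in either direction).

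MT1F, a further metal-binding isoform, was at 41.1, 29.6 and 31.4 RPKM in GDF5 replicates 1 to 3, against 34.3, 36.3 and 36.4 RPKM in control replicates 1 to 3. GDF5 replicate 1 was above, and GDF5 replicates 2 and 3 were below, every control library. The log2 change was -0.081 (-0.34 to 0.18, limma adjusted p = 0.627). Without GDF5 replicate 1 MT1F was called lower, at -0.22 (limma adjusted p = 0.0126) and at -0.16 with limma-voom (adjusted p = 0.0157).

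MT1M, an isoform best known from liver, was at 22.1, 18.9 and 19.7 RPKM in GDF5 replicates 1 to 3, against 26.5, 19.3 and 23.7 RPKM in control replicates 1 to 3. The groups overlapped, with control replicate 2 among the GDF5 libraries. Its log2 change was -0.18 (-0.44 to 0.081, limma adjusted p = 0.273), and it was called lower without control replicate 2 (-0.30, limma adjusted p = 0.0448).

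MT1G was at 6.89, 5.58 and 5.35 RPKM in GDF5 replicates 1 to 3, against 4.39, 4.43 and 8.01 RPKM in control replicates 1 to 3, so that control replicate 3 lay above every GDF5 library. Its log2 change was 0.11 (-0.36 to 0.58, limma adjusted p = 0.722). MT1A was at 3.06, 3.05 and 1.49 RPKM in GDF5 replicates 1 to 3, against 2.21, 3.02 and 2.25 RPKM in control replicates 1 to 3. The groups overlapped, and its log2 change was -0.012 (-0.47 to 0.45, limma adjusted p = 0.969). The sign turned with median-of-ratios scaling, to 0.028. Both intervals include a change of the size seen in MT1E, 0.18.

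MTF1 (ENSG00000188786, reverse strand of chromosome 1, 37809567 to 37859620), the factor that reads zinc, was at 4.83, 5.29 and 5.42 RPKM in GDF5 replicates 1 to 3, against 5.05, 5.04 and 4.90 RPKM in control replicates 1 to 3. The groups overlapped, with GDF5 replicate 1 the lowest of the 6 libraries. Its log2 change was 0.044 (-0.064 to 0.15, limma adjusted p = 0.516). It was called higher only with limma-voom and without GDF5 replicate 1 (0.17, adjusted p = 0.0232), among the alternatives run.

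**Figure D2:**
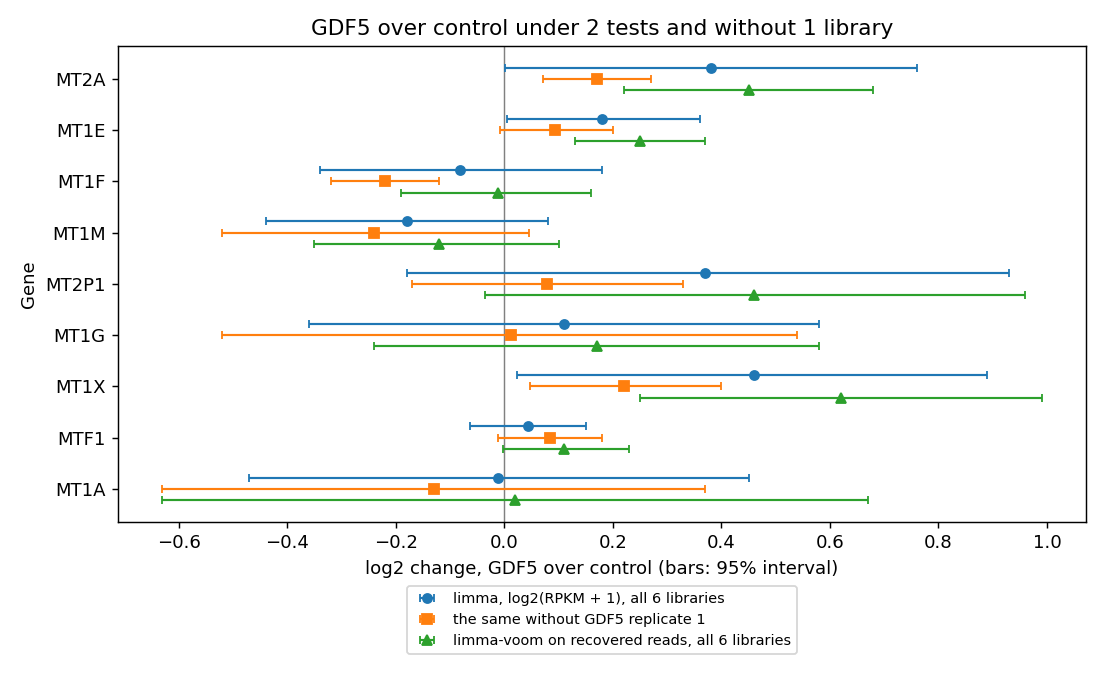
Log2 change of GDF5 over control for each gene with its 95% interval, from limma on log2(RPKM + 1) with all 6 libraries, the same without GDF5 replicate 1, and limma-voom on recovered reads. Leaving out GDF5 replicate 1 brought MT2A to 0.17 and MT1F to -0.22 and narrowed both intervals.

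The share of each gene in the summed RPKM of the 7 metallothioneins is a ratio within a library, which no scaling of libraries moves. It does depend on the gene lengths divided by. MT2A made up 75.6%, 70.7% and 71.4% of the summed metallothionein RPKM in GDF5 replicates 1 to 3, against 68.3%, 69.6% and 68.7% in control replicates 1 to 3. The share of MT1F was 3.21%, 3.43% and 3.51% in GDF5 replicates 1 to 3, against 4.39%, 4.59% and 4.33% in control replicates 1 to 3. The share of MT1M was 1.73 to 2.21% in GDF5 and 2.43 to 3.39% in control libraries. These 3 of 7 shares did not overlap between the groups, and those of MT1E, MT1X, MT1G and MT1A did. Of all tested genes 43.9% did not overlap in RPKM, which is not a like measure. The shares are parts of the same sum, so they are tied, and a larger share of MT2A leaves less for the others. In RPKM the groups overlapped for MT1F and MT1M. For MT2A the nearest libraries were GDF5 replicate 2 at 70.7% and control replicate 2 at 69.6%. The ratio of MT2A to MT1F was 23.5, 20.6 and 20.3 in GDF5 replicates 1 to 3, against 15.6, 15.2 and 15.9 in control replicates 1 to 3. It averaged 21.5 ± 1.77 in GDF5 and 15.6 ± 0.351 in control libraries (SD, n = 3 each), and GDF5 replicates 2 and 3 alone were above every control library. The ratio of MT2A to MT1E was 4.22, 3.21 and 3.31 in GDF5, against 3.03, 3.19 and 3.06 in control libraries, with GDF5 replicate 2 next to control replicate 2. These shares and ratios were picked after their values were seen and were not tested, and 3 libraries against 3 could not give an exact two-sided permutation p below 0.1.

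GDF5 replicate 1 had more metallothionein RNA than the other GDF5 libraries. Reads in the 7 genes made up 0.124% of all reads there, against 0.0836% and 0.0867% in GDF5 replicates 2 and 3 and 0.0761 to 0.0820% in control libraries. On the log2(RPKM + 1) scale GDF5 replicate 1 was above the mean of GDF5 replicates 2 and 3 by 0.69 for MT1X, 0.63 for MT2A, 0.42 for MT1F, 0.31 for MT1A, 0.29 for MT1G, 0.26 for MT1E and 0.18 for MT1M. For MTF1 the difference was -0.12. Over all tested genes its median was -0.0055 and the 5th and 95th percentiles were -0.18 and 0.21, so that 6 of the 7 metallothioneins lay above the 95th percentile. GDF5 replicate 1 was higher by as much as for MT2A or more in 0.489% of tested genes, MT2A included. The median was -0.015 over 1120 tested genes with an implied length under 1000 bases. MT1X, MT1F and MT1E, at implied lengths of 1727, 1852 and 1052 bases, are not among these, and the part of length was not tested.

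**Figure D3:**
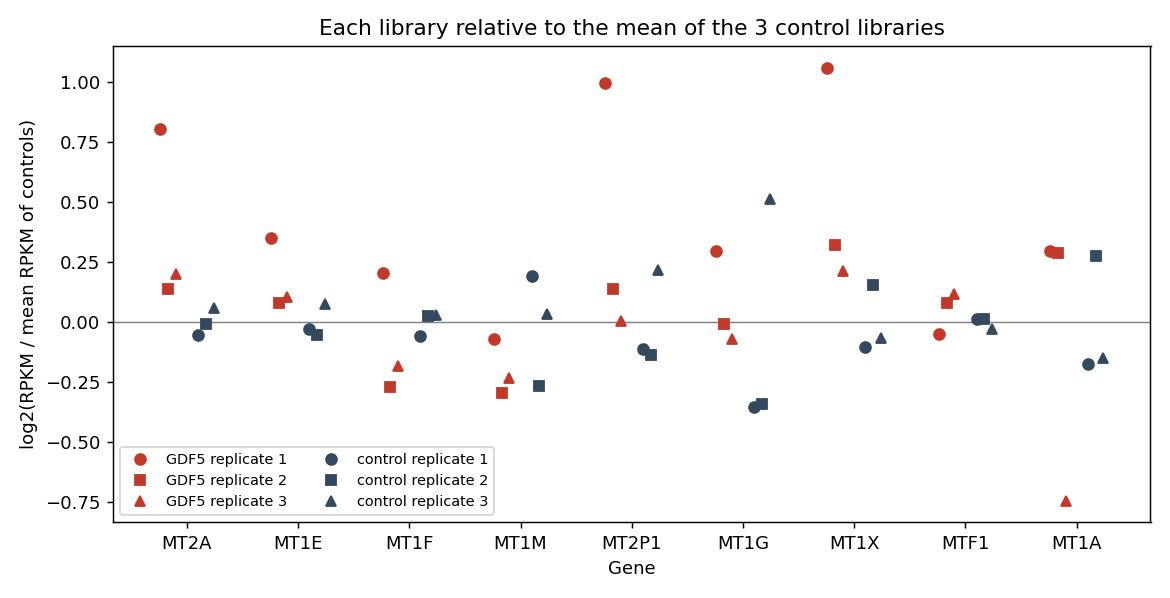
Each library's RPKM over the mean of the 3 control libraries, on a log2 axis, for 7 metallothioneins, MT2P1 and MTF1, with GDF5 libraries left of control libraries. GDF5 replicate 1 is the highest library for MT2A, MT1E, MT1F, MT1X, MT1A and MT2P1, and for MTF1 it is the lowest.

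Of 13 other metallothionein loci looked for, 5 had a row, all of them pseudogenes. MT2P1 was at 26.1, 14.4 and 13.1 RPKM in GDF5 replicates 1 to 3, against 12.1, 11.9 and 15.2 RPKM in control replicates 1 to 3. Its log2 change was 0.37 (-0.18 to 0.93, limma adjusted p = 0.284), and 0.078 without GDF5 replicate 1. Its level was 2.05 to 2.70% of that of MT2A in GDF5 and 2.16 to 2.64% in control libraries. MT1L, MT1XP1, MT1P1 and MT1JP held 0 to 7 reads in any library and were below the tested level. The genes most like MT2A over the 6 libraries, by the mean absolute difference of centred log2(RPKM + 1) values among 6640 genes of at least 5 RPKM, were IER3 (0.0839), MT1X (0.0907), CD70 (0.102), AIMP2 (0.109) and MT2P1 (0.110). IER3, an immediate early response gene, was at 38.3, 29.2 and 31.5 RPKM in GDF5 replicates 1 to 3, against 24.0, 25.7 and 27.9 RPKM in control replicates 1 to 3.

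Among SLC30 genes, which carry zinc out of the cytosol, 0 of 5 tested were called with limma, beside 25.0% of all tested genes, and 1 had an unadjusted p under 0.05, beside 39.3%. That gene was SLC30A1, the plasma membrane exporter and an MTF1 target, at 24.7, 25.3 and 25.0 RPKM in GDF5 replicates 1 to 3, against 23.7, 24.3 and 23.0 RPKM in control replicates 1 to 3. The groups did not overlap, and the log2 change was 0.075 (limma adjusted p = 0.111). It was called with median-of-ratios scaling (0.13, adjusted p = 0.0290) and with limma-voom (0.14, adjusted p = 0.00825). For SLC30A6, of the Golgi, limma gave -0.043 on the log2 scale (adjusted p = 0.617), and 0.0092 with median-of-ratios scaling.

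Among SLC39 genes, which bring zinc into the cytosol, 1 of 11 tested was called higher and 1 lower, beside 7.48% and 17.5% of all tested genes. With median-of-ratios scaling 3 were higher and 0 lower, beside 12.2% and 10.8%, and with limma-voom 3 were higher and 1 lower, beside 15.8% and 13.2%. SLC39A10, a plasma membrane importer reported in mouse to be repressed by MTF1, was at 27.6, 29.3 and 27.9 RPKM in GDF5 replicates 1 to 3, against 25.7, 25.6 and 23.9 RPKM in control replicates 1 to 3. All GDF5 libraries were above all control libraries, and the log2 change was 0.17 (limma adjusted p = 0.0235). Limma no longer called it without GDF5 replicate 2 (0.14, adjusted p = 0.0834), GDF5 replicate 3 (0.18, 0.0610) or control replicate 3 (0.13, 0.0542). Limma-voom called it with all libraries (0.24, adjusted p = 0.000271) and with any 1 left out (0.20 to 0.26, adjusted p = 2.27e-05 to 0.00264). SLC39A6 averaged 30.8 ± 0.389 RPKM in GDF5 and 33.0 ± 0.779 RPKM in control libraries (SD, n = 3 each), a log2 change of -0.098 (limma adjusted p = 0.0473). It was not called after median-of-ratios scaling (limma adjusted p = 0.325) or when any 1 library was left out (0.0566 to 0.143).

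Of 8 tested copper genes 0 were called by limma, beside 25.0% of all tested genes, and 0 by limma-voom, beside 29.1%. In limma 1, SOD1, had an unadjusted p under 0.05, beside 39.3%. SOD1, the cytosolic copper and zinc superoxide dismutase, averaged 65.4 ± 1.31 RPKM in GDF5 and 68.9 ± 1.85 RPKM in control libraries (SD, n = 3 each). The difference on the log2 scale was -0.074 (limma adjusted p = 0.123). For COX17, a copper chaperone for cytochrome oxidase, limma gave -0.11 on the log2 scale (adjusted p = 0.359).

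Among glucocorticoid-responsive genes, with which metallothioneins share an inducer, 2 of 8 tested were called higher and 2 lower, beside 7.48% and 17.5% of all tested genes. With median-of-ratios scaling 3 were higher and 1 lower, beside 12.2% and 10.8% of all tested genes. Limma-voom also called 3 higher and 1 lower, beside 15.8% and 13.2%. DUSP1, a phosphatase of MAP kinases that many other signals also induce, was at 31.1, 31.3 and 32.5 RPKM in GDF5 replicates 1 to 3, against 18.3, 18.0 and 18.8 RPKM in control replicates 1 to 3. The groups lay far apart, with a log2 change of 0.75 (limma adjusted p = 2.29e-05). TSC22D3 (GILZ) rose by 0.14 (limma adjusted p = 0.0438), CRISPLD2 fell by 0.25 (0.00327) and ERRFI1 fell by 0.17 (0.0399). ERRFI1 was not called after median-of-ratios scaling (limma adjusted p = 0.110). TSC22D3 was not called by limma when any 1 library but control replicate 3 was left out (0.11 to 0.16, adjusted p = 0.0680 to 0.141). It was called with median-of-ratios scaling (adjusted p = 0.0151), with limma-voom (0.00249) and with limma-voom when any 1 library was left out (0.00269 to 0.0207). Without GDF5 replicate 1 limma called 1 gene of the list higher and 1 lower, beside 7.53% and 17.3% of all tested genes. For FKBP5, a sensitive glucocorticoid target, limma gave -0.072 on the log2 scale (adjusted p = 0.218).

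Of 13 tested heat shock and oxidative stress genes 4 were called higher and none lower, beside 7.48% and 17.5% of all tested genes. HSPA8, the constitutive HSC70 chaperone, was at 226, 263 and 269.6 RPKM in GDF5 replicates 1 to 3, against 201, 205 and 209 RPKM in control replicates 1 to 3. Here GDF5 replicate 1 was the lowest of its group, unlike for MT2A. The log2 change of HSPA8 was 0.30 (limma adjusted p = 0.0166). BAG3, a co-chaperone, rose by 0.24 (limma adjusted p = 0.0171), HSPH1 by 0.16 (0.0168) and HSPA1A, the inducible HSP70, by 0.19 (0.0351). HSPA1A has a near-identical copy in HSPA1B, so its value is uncertain. Without GDF5 replicate 3 none of the 4 was called by limma (0.13 to 0.25, lowest adjusted p = 0.0511), while limma-voom called each of them without that library. Without GDF5 replicate 1 limma called 3 genes of the list higher and 1 lower, beside 7.53% and 17.3% of all tested genes. With limma-voom and all libraries 8 of 13 were called higher, beside 15.8% of all tested genes. For HMOX1, heme oxygenase, which metals also induce, limma gave 0.11 on the log2 scale (adjusted p = 0.184).

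**Figure D4:**
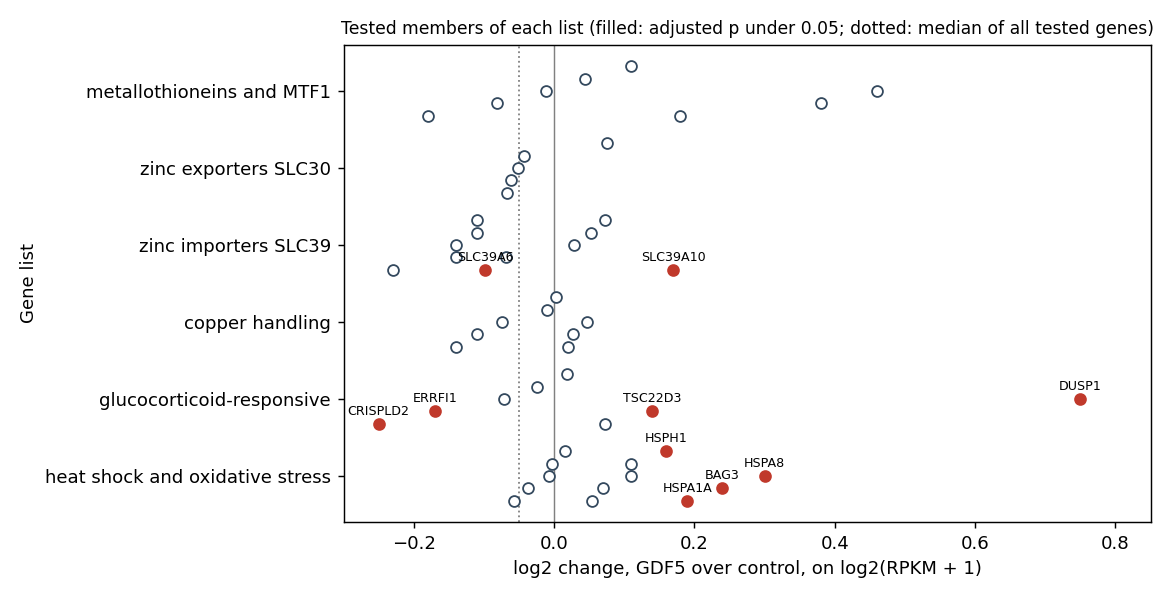
Log2 change of GDF5 over control on log2(RPKM + 1) for the tested members of each list; filled points were called at an adjusted p under 0.05, and the dotted line is the median of all tested genes, -0.050. None of the metallothioneins or MTF1 is filled, and DUSP1 stands apart at 0.75.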

How the data were processed

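RNA from HK-2 cells was sequenced as strand-specific libraries, per the labels' protocols, and HISAT2, DESeq2 and GRCh38 are named in the submitters' processing notes. Read counter and annotation are not stated. The authors deposited a level per library, read here as RPKM, a unit that the steps between low values go with. The authors also deposited a mean signal per group, a log2 fold change and p-values. Reads were recovered from the RPKM steps and group means, and of 32362 values below 20 reads 100% were whole to within 0.1.

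Genes with a mean of at least 1 RPKM were compared with limma 3.58.1 (R 4.3.3) on log2(RPKM + 1) with an intensity trend and Benjamini-Hochberg adjustment over all 12476 genes, a scale that understates changes of low genes. Simulated counts with known changes served to check the fit. Members and lists were chosen with earlier results of these data known. Named were all members, up to 4 called genes of each list by adjusted p or the 2 of highest level, and SLC30A1. FKBP5, HMOX1 and the single markers named were picked from their lists after their values were seen. A proximal tubule marker is not reported here. Intervals are at 95%. Alternatives were another pseudocount, filter, threshold and scaling, mitochondrial genes left out, limma-voom on recovered reads, a replicate block, no variance trend and each library left out.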

Additional observations from a re-analysis of the deposited data

Results flagged for a closer look

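MT1L and MT1XP1, pseudogenes below the tested level, had reads in GDF5 libraries and 0 in control libraries, which drew attention because no comparison used them. MT1L held 2, 7 and 2 reads in GDF5 replicates 1 to 3, 11 in all, and 0 in each control library. Set against 3 reads over the control group, the limit taken for a count of 0, these 11 reads were 3.55-fold higher per read assigned to genes. MT1XP1 held 1, 3 and 1 reads in GDF5 replicates 1 to 3, 5 in all, and 0 in each control library. By the same limit it was 1.61-fold higher. Both folds put counting error on the control count only and take the GDF5 reads as exact, so they are not lower limits. The 2 pseudogenes were picked after their control counts of 0 were seen. How many other genes below the tested level show this pattern was not counted, so whether it is common there is not known. Among tested genes 13.5% were non-overlapping and higher in GDF5. Of recovered values under 20 reads 60.5% were even, and whether reads were counted in pairs was not tested. In the authors' deposited table the adjusted p was 0.218 for MT1L and 0.744 for MT1XP1. The pseudogenes share 4.4% and 27.7% of their 50-base windows with other genes, and the part of such sharing was not tested.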

How the results depend on the processing

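The number of genes called, 3116, fell to 1812 without a filter and to 1285 at a threshold of 0.01, and lay between 1760 and 3099 when 1 library was left out. With median-of-ratios scaling 1524 genes were higher and 1343 lower, against 933 and 2183. The number of members called, 0 of 8, was 3 with limma-voom and 4 with median-of-ratios scaling without GDF5 replicate 1. Of these 4, MT2A, MT1E and MT1X were higher and MT1F was lower (-0.17, limma adjusted p = 0.0308), beside 2857 of all 12476 genes called. When 1 library was left out 0 to 2 members were called. When it was left out of limma-voom 2 to 5 were called, beside 2685 to 3888 of all 12476 genes. The list genes called, 10 of 45 tested, came to 3 without a filter, 6 without a variance trend, 17 with limma-voom and 2 at 0.01. They came to 3 to 8 without 1 library, or 13 to 16 by limma-voom. Calls over all tested genes moved as well, from 3116 of 12476 (25.0%) to 2969 without a variance trend and 3625 (29.1%) with limma-voom. The other counts over all tested genes are given above. The causes were not tested. Directions turned for MT1A (0.028 with median-of-ratios scaling, 0.0096 with mitochondrial genes left out of totals, 0.020 by limma-voom, and -0.13 to 0.22 without 1 library, or -0.18 to 0.38 by limma-voom, above 0 also at 0.16). They also turned for MT1F (-0.22 to 0.010, or -0.16 to 0.072 by limma-voom, above 0 also at 0.047, 0.0041 and 0.0020) and MT1G (-0.018 to 0.35) without 1 library. SLC30A6 turned to 0.0092 with that scaling, 0.015 by limma-voom, 0.062 with that scaling without GDF5 replicate 1, and -0.083 to 0.010 or, by limma-voom, -0.035 to 0.075 without 1 library, above 0 also at 0.049 and 0.030. SOD1 ran from -0.025 to 0.015 in limma-voom without 1 library, above 0 also at 0.0014, and COX17 reached 0.0023 with that scaling without GDF5 replicate 1. MT2A, MT1E, MT1X, MT1M and MTF1 kept their direction in every alternative run. Leaving out libraries from limma-voom, and median-of-ratios scaling without GDF5 replicate 1, were chosen after seeing the data. With a replicate block 2167 genes and 0 members were called (MT2A adjusted p = 0.140 by limma). Same-numbered libraries had correlations of -0.04, 0.06 and -0.03, and differently numbered ones -0.06 to 0.07. No pairing by number was visible, though such values cannot exclude it. MT1A rested on 32 to 68 reads per library, and the part of depth in its spread was not tested.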
